A study of Mus musculus with 3 samples.

Results

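The genes described here are 32 cell cycle genes, 20 that act in mitosis and 12 that act in DNA replication. They were chosen by function, with earlier results of these data known, so counts over them are descriptions and not tests. Each was represented by its brightest probe set among those paired with exactly 1 gene symbol. Of the 32 genes, 31 had such a probe set, among 18193 genes with one on the array, and 30 passed a minimum mean of 5 on the log2 scale, among 8456 genes that did. The 30 tested genes comprised 19 mitotic and 11 replication genes. Ccnb1, which encodes cyclin B1, had no probe set paired with it alone and was not analysed here, and Tyms, which encodes thymidylate synthase, was too dim to be tested. Total RNA was measured from dorsal skin of 4-day-old female BALB/cA mice, on 1 single-colour Affymetrix array per sample. There was 1 wild type sample (uncv +/+) and there were 2 uncv null samples (uncv -/-), from sisters whose parents were both uncv +/-. Genotype was told from the whiskers or by PCR, per the series description. No sample was treated, no heterozygous sample was measured, and the single wild type array is the only estimate of the wild type level.

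Uncovered (uncv) is a mouse mutation that leaves the coat sparse or missing. It was later mapped to Rhbdf2, the gene of the inactive rhomboid protein iRhom2, which is needed for the maturation of the protease ADAM17 and thereby for the shedding of epidermal growth factor receptor ligands. In early postnatal skin the dividing cells lie mainly in the basal layer of the epidermis and in the hair matrix, the bulb of the growing follicle, whose descendants build the hair shaft and inner root sheath. A cycling cell transcribes its genes in waves. In late G1 and S phase, E2F transcription factors drive the genes that license origins, unwind DNA and supply nucleotides. In G2 phase and mitosis, the MuvB complex with B-MYB and FOXM1 drives genes of the spindle, the kinetochore and chromosome segregation through the cell cycle genes homology region (CHR), often together with boxes bound by NF-Y. The comparison asks whether the transcripts of these phases stood at other levels in uncv null skin than in wild type skin.

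The promoters of the members differ by class in these motifs, and a few are printed here because they carry them. RefSeq promoters (GRCm38.p6), spanning 250 bases before the annotated start and 50 after it, were matched for 26 of the 32 members, 16 mitotic and 10 replication genes. Aurkb, Kif20a, Mcm4, Ccne2, Ccna2 and Tpx2 were not matched. Both strands were searched for E2F sites written as TTTCCCGC, TTTCGCGC, TTTGGCGC or TTTGCCGC, for the CHR written as TTTGAA or TTCGAA, and for the CCAAT box. A CHR was present in 12 of 16 mitotic promoters (75%), in 2 of 10 replication promoters (20%) and in 21.7% of all 27025 genes with a promoter. An E2F site was present in 4 of 10 replication promoters (40%), in 1 of 16 mitotic promoters (6.25%) and in 2.61% of all genes. CCAAT boxes were common to both classes, in 14 of 16 mitotic and 8 of 10 replication promoters, against 41.1% of all genes. All 12 mitotic promoters with a CHR also held a CCAAT box. The median GC content was 57.8% in the mitotic promoters, 57.5% in the replication promoters and 52.8% over all genes. These matches describe letters within the window and are not evidence of binding.

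Stretches upstream of the start are given 5′ to 3′ on the strand of the gene, with every match to the 3 motifs in capitals. On the opposite strand a CCAAT box reads ATTGG and the first CHR form reads TTCAAA. The mitotic examples pair CCAAT boxes with CHR elements, up to 6 and 4 of them in Top2a, and Cdk1 also holds the E2F match of that class.
Cdk1 (chr10:69352913-69353052, minus strand): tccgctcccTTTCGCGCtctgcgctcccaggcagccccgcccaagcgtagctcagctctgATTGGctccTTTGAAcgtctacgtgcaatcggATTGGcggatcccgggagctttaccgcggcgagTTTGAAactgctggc
Cdc20 (chr4:118437344-118437413, minus strand): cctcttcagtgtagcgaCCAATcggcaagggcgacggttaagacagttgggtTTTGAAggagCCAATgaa
Mki67 (chr7:135716469-135716574, minus strand): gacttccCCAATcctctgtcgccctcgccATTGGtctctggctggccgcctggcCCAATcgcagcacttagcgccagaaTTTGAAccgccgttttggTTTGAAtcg
Top2a (chr11:99024190-99024424, minus strand): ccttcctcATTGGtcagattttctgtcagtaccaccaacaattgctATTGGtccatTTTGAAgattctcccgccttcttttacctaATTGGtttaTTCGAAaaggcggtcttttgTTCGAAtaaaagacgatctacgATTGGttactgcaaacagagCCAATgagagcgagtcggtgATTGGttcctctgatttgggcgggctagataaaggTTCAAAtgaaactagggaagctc
Kif11 (chr19:37376322-37376381, plus strand): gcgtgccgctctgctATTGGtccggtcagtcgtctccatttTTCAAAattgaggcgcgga

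The replication examples show paired E2F matches in Mcm5 and Mcm6, where a match on each strand overlaps the other. Mcm2 holds a CHR and a CCAAT box with no E2F match, and the upstream part of Mcm3 and Rrm1 holds CCAAT boxes only. The 2 E2F matches of Mcm3 lie after its annotated start.
Mcm5 (chr8:75109349-75109508, plus strand): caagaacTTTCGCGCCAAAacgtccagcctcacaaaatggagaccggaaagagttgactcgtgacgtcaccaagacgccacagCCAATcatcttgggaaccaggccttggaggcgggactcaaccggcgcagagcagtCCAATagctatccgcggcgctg
Mcm6 (chr1:128359706-128359825, minus strand): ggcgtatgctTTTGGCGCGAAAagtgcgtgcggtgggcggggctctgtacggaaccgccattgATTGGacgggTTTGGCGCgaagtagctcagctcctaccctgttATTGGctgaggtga
Mcm3 (chr1:20820313-20820437, minus strand): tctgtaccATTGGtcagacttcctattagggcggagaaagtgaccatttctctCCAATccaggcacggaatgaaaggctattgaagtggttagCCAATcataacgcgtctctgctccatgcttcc
Mcm2 (chr6:88898840-88898960, minus strand): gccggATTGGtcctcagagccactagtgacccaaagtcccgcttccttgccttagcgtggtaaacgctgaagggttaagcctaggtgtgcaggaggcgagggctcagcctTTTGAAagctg
Rrm1 (chr7:102441595-102441694, plus strand): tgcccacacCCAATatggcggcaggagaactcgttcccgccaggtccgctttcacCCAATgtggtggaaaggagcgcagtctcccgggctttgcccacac

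**Figure D1:**
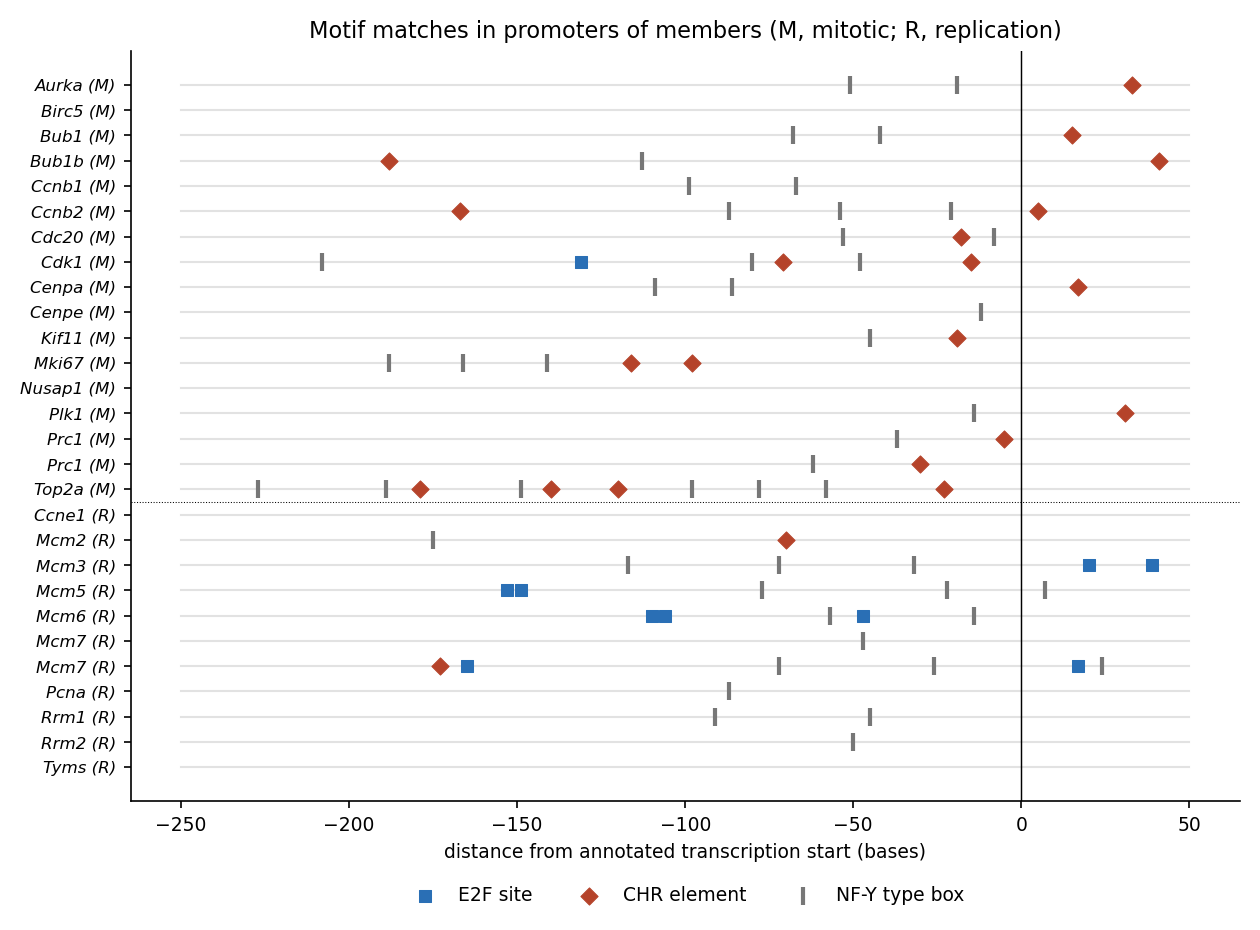
Motif matches in the 28 promoters of the 26 matched members, by distance in bases from the annotated transcription start, with mitotic genes above the dotted line and replication genes below it. Diamonds mark CHR elements, squares E2F sites and bars CCAAT (NF-Y type) boxes; diamonds lie mainly among the mitotic genes and squares mainly among the replication genes.

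Expression is given as log2 RMA values in the order wild type, uncv null 1, uncv null 2, and differences are uncv null minus wild type, so that 1 log2 unit is 2-fold. A level of 1 gene is not set against that of another, because probe sets differ in their response. The uncv null arrays differed in control probe sets. The mean of 3 probe sets for 18S ribosomal RNA was 3.59 in wild type, against 7.93 and 4.26 in uncv null 1 and 2, and the 3′ minus 5′ difference of the Actb control was 0.65, 1.23 and 0.79 in the same order. Skin markers were high, as with the suprabasal keratin Krt10 at 12.8, 12.7 and 12.9 and the hair shaft keratin Krt31 at 9.62, 9.38 and 9.82. Over all 8456 tested genes the median difference was 0.03 and 0.07 in uncv null 1 and 2.

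Replication genes lay slightly below wild type on both null arrays, and mitotic genes did not share a direction. Of the 11 replication genes 8 lay below wild type in both null arrays (72.7%), against 26.4% of all tested genes, and 2 lay above in both, against 38.8%. Of the 19 mitotic genes 7 lay above wild type in both arrays (36.8%), a share near that of all genes, 4 lay below in both, and 8 lay on opposite sides. Over both classes 21 of 30 members lay on one side of wild type in both arrays (65.2% of all genes). The median difference of the replication genes was -0.17, with -0.22 and -0.09 in uncv null 1 and 2. The median of the mitotic genes was 0.09, with -0.02 and 0.19. The replication median therefore stood lower than the mitotic one by a difference of -0.26 over both arrays, of -0.20 in uncv null 1 and of -0.28 in uncv null 2.

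These shifts are small, and both differences share the wild type array, so a single value of that array moves them together. Across the 13559 tested probe sets, limma with Benjamini-Hochberg adjustment called 0 of the 30 members at an adjusted p of 0.05, and 0% of all genes (adjusted p = 0.9996 for every member). At an unadjusted p of 0.05, 0 of 30 members passed, against 2.9% of all genes. No member lay 2-fold from wild type in both arrays, against 0.52% of all genes, and none 1.5-fold, against 2.84%. An exact permutation test over 1 wild type and 2 uncv null arrays cannot go below a one-sided p of 0.333, so it was not used. In bulk skin, fewer cycling cells and less of a transcript in each cycling cell cannot be told apart.

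**Figure D2:**
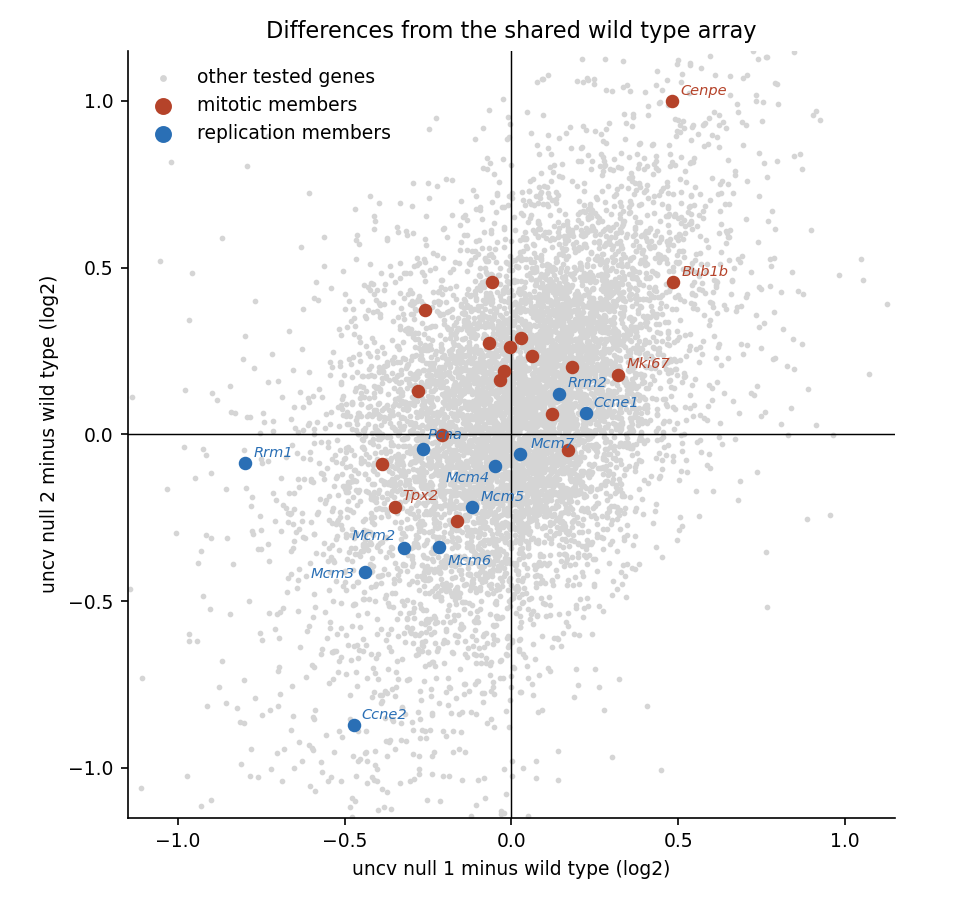
Difference from wild type in uncv null 1 (horizontal) and uncv null 2 (vertical), in log2 units, for each mitotic member, each replication member and all other tested genes in grey; 215 genes lie outside the axes. Both axes share the wild type array, which by itself draws points along the diagonal. Replication genes gather in the lower left quadrant, which holds 8 of 11, against 26.4% of all tested genes. Mitotic genes spread over all quadrants.

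The MCM helicase made up most of the replication genes that lay low. Mcm2 to Mcm7 encode the 6 subunits of the ring that is loaded onto origins in G1 and unwinds DNA in S phase. For 5 of the 6 both uncv null arrays lay below wild type, against 26.4% of all tested genes, and the median difference was -0.22.

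Mcm3 read 6.75 in wild type, against 6.31 and 6.33 in uncv null 1 and 2. This is a difference of -0.43 ± 0.26 (SE as moderated by limma, from 1 and 2 arrays, here and below), or 0.744-fold. Both uncv null arrays lay below wild type by nearly the same amount, and farther from it than from each other.

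Mcm2 had 7.18, 6.86 and 6.84 in the same order, a difference of -0.33 ± 0.26. Mcm6 had 8.57, 8.36 and 8.24, a difference of -0.28 ± 0.26. In both genes the uncv null arrays lay below wild type and close to each other, but the differences were little larger than their SE. Mcm5 stood at -0.17 and Mcm4 at -0.07. Mcm7 had 9.49, 9.52 and 9.43, so wild type lay between the uncv null arrays.

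The other probe sets of these genes mostly lay on the same side. Of 16 MCM probe sets past the minimum mean, 12 lay below wild type in both arrays, 1 above in both and 3 on opposite sides, against 28.2% below and 34.9% above among all tested probe sets. All 4 tested Mcm3 probe sets lay below in both arrays, with differences from -0.43 to -0.19. For Mcm7 the brightest probe set was the exception, and its other 3 stood at -0.20, -0.17 and -0.29. The second Mcm2 probe set pointed the other way, with 6.53 in wild type, against 6.60 and 6.65 in uncv null 1 and 2. Mcm4 had 7.41, 7.36 and 7.32 by its brightest probe set and 6.87, 6.80 and 6.97 by the second. The second Mcm5 probe set had 7.08, 6.56 and 7.09, so there only uncv null 1 lay below wild type. Probe sets of 1 gene share their RNA and are repeat readings, not further samples.

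The G1/S cyclins differed from each other. Ccne2 encodes cyclin E2, which with CDK2 starts S phase, and had 5.77 in wild type, against 5.30 and 4.90 in uncv null 1 and 2. Its difference of -0.67 ± 0.29 (limma unadjusted p = 0.064) was the farthest from 0 of the replication members. Both arrays lay below wild type, and the uncv null 2 value lay under the minimum mean of 5, so Ccne2 was tested because of its higher values in the other arrays.

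Ccne1, the gene of cyclin E1, had 5.57, 5.80 and 5.64, a difference of 0.14 ± 0.26, with both uncv null arrays above wild type. A dimmer Ccne1 probe set, below the minimum mean, read 4.87, 4.62 and 4.32, with both below it. The direction of Ccne1 therefore depends on the probe set.

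Pcna encodes the sliding clamp that holds DNA polymerase on the template. It had 10.5 in wild type, against 10.3 and 10.5 in uncv null 1 and 2, with differences of -0.26 and -0.05. The mean difference of -0.15 ± 0.27 was smaller than its SE.

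Rrm1 and Rrm2 encode the large and small subunits of ribonucleotide reductase, which makes deoxyribonucleotides. Rrm1 had 7.98 in wild type, against 7.18 and 7.89 in uncv null 1 and 2. Uncv null 1 alone was low, and the gap between the uncv null arrays exceeded the mean difference of -0.44 ± 0.36. The second Rrm1 probe set had differences of -0.25 and -0.07.

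For Rrm2 the probe sets disagreed. The brightest had 9.02, 9.16 and 9.14, with both uncv null arrays above wild type by a mean of 0.13 ± 0.26. The other 2 had 8.16, 7.99 and 8.06, a difference of -0.13, and 7.37, 6.65 and 7.32, a difference of -0.39, with both arrays below wild type in each. The brightest Rrm2 probe set is of a type, ending in s_at or x_at, whose probes can also match other sequences. So are the brightest probe sets of Mcm3, Mcm5, Mcm7, Ccne1, Bub1b, Aurkb and Prc1. Tyms, which makes thymidylate, read 3.48, 3.48 and 3.56, below the minimum mean, so no difference is given for it.

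**Figure D3:**
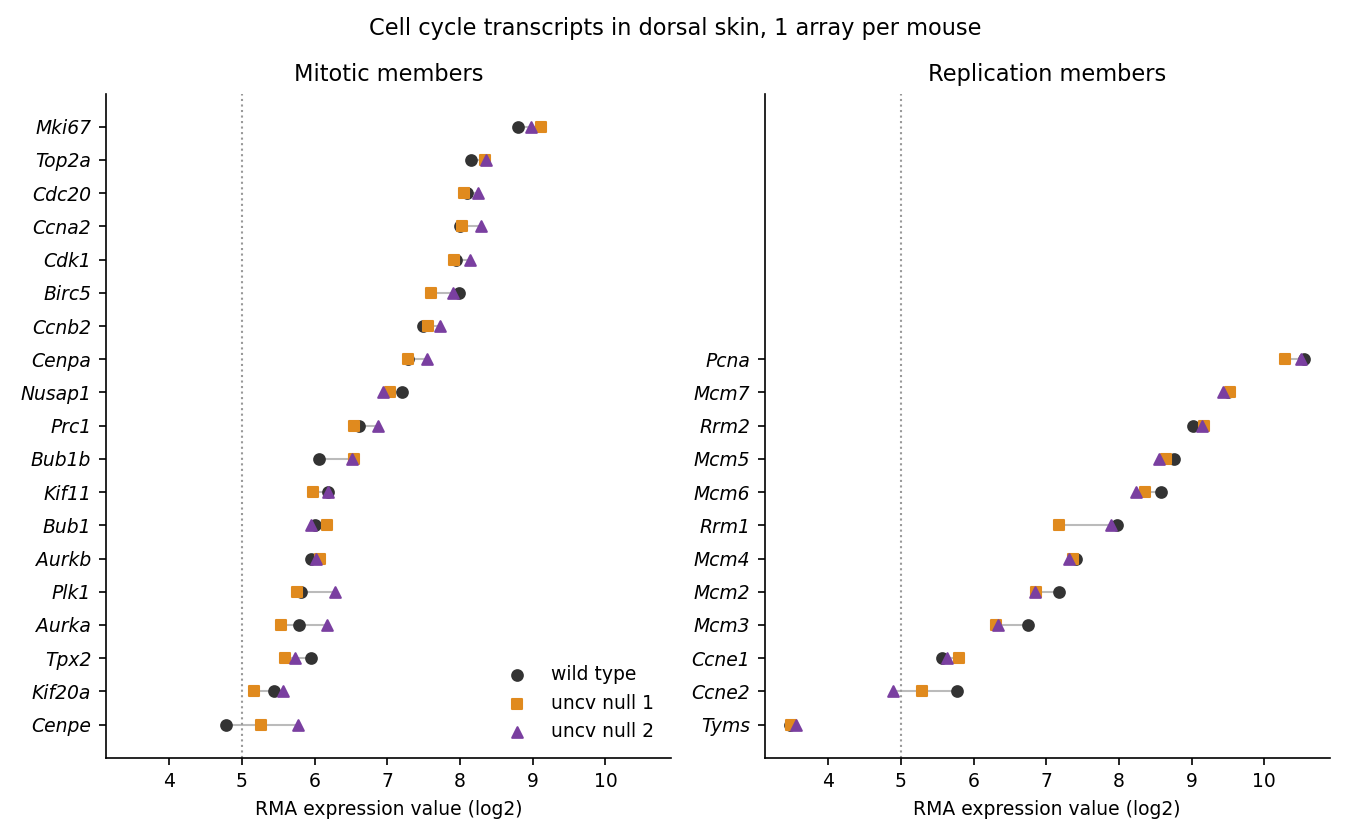
RMA expression value (log2) of each member on the wild type array (circles), uncv null 1 (squares) and uncv null 2 (triangles), by its brightest probe set; the dotted line is the minimum mean of 5 for testing. The 3 arrays lie within about 1 log2 unit of each other for every gene, and for the Mcm2, Mcm3 and Mcm6 rows the wild type circle is the rightmost point.

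Mitotic genes were ordered by what their products do. Mki67 and Top2a lay slightly above wild type, each by less than its SE. Mki67 encodes Ki-67, which coats mitotic chromosomes and keeps them apart, and had 8.79 in wild type, against 9.11 and 8.97 in uncv null 1 and 2. Both uncv null arrays lay above wild type, by a mean of 0.25 ± 0.26. Top2a, the topoisomerase that untangles sister chromatids, stood at 0.19 ± 0.26, with 0.18 and 0.20 in the uncv null arrays.

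Cyclins and their kinase had differences of 0.08 to 0.16. Ccnb2, the gene of cyclin B2, stood at 0.06 and 0.24 in uncv null 1 and 2. Ccna2, the gene of cyclin A2, had 8.00, 8.02 and 8.28, a difference of 0.16 ± 0.27, but its second probe set had 8.18, 7.83 and 8.23, a difference of -0.15. Cdk1, the kinase that they activate, had 7.94, 7.92 and 8.13. For Cdk1 the uncv null 1 array lay next to wild type and uncv null 2 was the highest.

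Genes of the spindle checkpoint had no common direction. Bub1b encodes BubR1, which holds back the anaphase promoting complex until every kinetochore is attached, and had 6.06 in wild type, against 6.55 and 6.52 in uncv null 1 and 2. Its difference was 0.47 ± 0.26 (limma unadjusted p = 0.118), larger than the gap between the uncv null arrays. A second Bub1b probe set, nearly as bright, gave 6.13, 6.13 and 6.37, a mean difference of 0.13. The kinase gene Bub1 stood at 0.17 and -0.05, on opposite sides of wild type. Cdc20, the activator that the checkpoint restrains, had 8.09, 8.06 and 8.25 by its brightest probe set and 7.92, 8.19 and 8.00 by the second, with differences of 0.02 and -0.11 by the dimmest. The highest array was uncv null 2 in the first reading and uncv null 1 in the others.

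Of the mitotic kinases, Aurka and Plk1 had wide gaps between the uncv null arrays. Aurka, the spindle pole kinase, had 5.79, 5.53 and 6.16, so wild type lay between the uncv null arrays. Plk1, the polo kinase of mitotic entry, had 5.82, 5.76 and 6.28. Aurkb, the kinase of the chromosomal passenger complex, had 5.95, 6.07 and 6.01, while its other probe set had 5.29, 5.58 and 4.84, with the uncv null arrays on opposite sides of wild type. Birc5 encodes survivin, a partner of Aurora B in that complex, and had 7.99, 7.60 and 7.90. Both uncv null arrays lay below wild type, with a mean difference of -0.24 ± 0.28.

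The motors included the largest difference of any member. Cenpe, the kinesin that moves chromosomes to the spindle equator, had 4.78 in wild type, against 5.26 and 5.77 in uncv null 1 and 2. Its difference was 0.74 ± 0.32 (1.67-fold, limma unadjusted p = 0.060), with both uncv null arrays above wild type. The wild type value lay under the minimum mean, so Cenpe passed that minimum through the uncv null arrays alone, and a positive difference was in part built into its inclusion. Kif11, the motor that pushes spindle poles apart, had 6.19, 5.98 and 6.18 by its brightest probe set and 5.18, 5.22 and 5.89 by another, so its direction depends on the probe set. Kif20a, a kinesin of the central spindle, stood at -0.28 and 0.13.

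Both spindle assembly factors lay below wild type by their brightest probe sets, as did Birc5 and the brightest Kif11 probe set. Tpx2, which activates Aurora A on the spindle, had 5.94, 5.59 and 5.73, a difference of -0.28 ± 0.26. Its other probe sets lay under the minimum mean and were not below wild type in both arrays. The brightest of those read 4.62, 4.35 and 4.84. Nusap1, a microtubule-binding protein, stood at -0.21 ± 0.26, with both arrays below. Prc1, which bundles the central spindle, stood at -0.07 and 0.27, and Cenpa, the centromeric histone, at -0.005 and 0.26.

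The median absolute gap between the uncv null arrays was 0.21 in the mitotic genes, against a median absolute difference from wild type of 0.15. Over all tested genes these values were 0.22 and 0.17, so a gap wider than the difference was general on these arrays. In 14 of 19 uncv null 2 lay above uncv null 1, against 55.6% of all tested genes, with a median of 0.20 against 0.04 over all genes. In 11 of 19 uncv null 2 was the highest of the 3 arrays, against 44.8% of all genes, and in 4 uncv null 1 was (28.8%). Uncv null 1 was the lowest array in 10 of 19, against 30.8%, and uncv null 2 in 2, against 30.4%. The mean difference from wild type exceeded the gap between the uncv null arrays in 7 of 19 mitotic genes and in 7 of 11 replication genes, against 42.5% of all genes. Uncv null 1 was the array with the high 18S signal, whose part in these gaps was not tested. With uncv null 2 alone, 9 of 11 replication genes lay below wild type, against 41.2% of all genes, and 14 of 19 mitotic genes lay above, against 58.8%. With uncv null 1 alone the counts were 8 of 11, against 46.5%, and 8 of 19, against 53.5%.

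**Figure D4:**
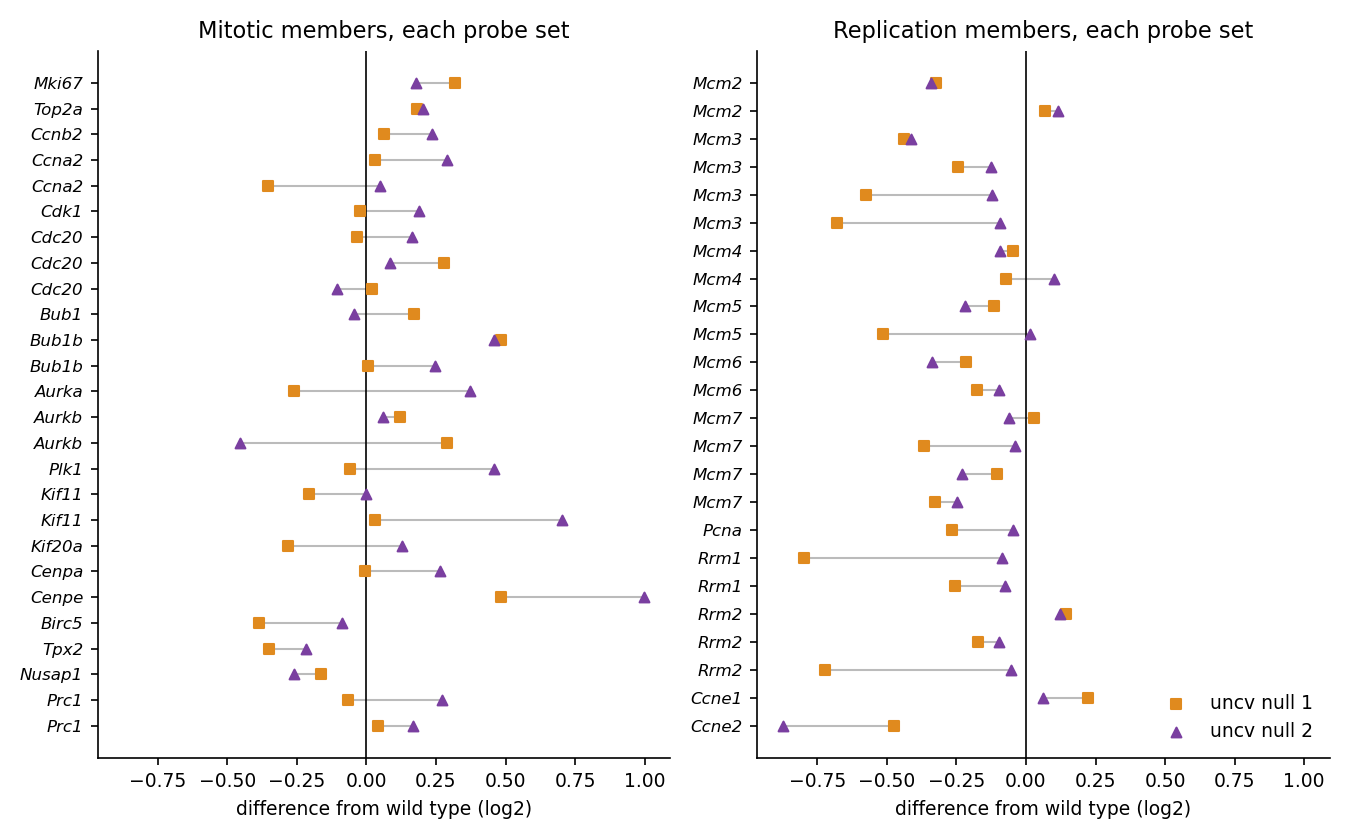
Difference from wild type (log2) of every probe set of the members past the minimum mean, in uncv null 1 (squares) and uncv null 2 (triangles); a gene named on several rows has several probe sets. Of 24 replication probe sets 18 lie left of 0 in both arrays and 3 right of it. Of 26 mitotic probe sets 4 lie left and 11 right. Among all tested probe sets 28.2% lie left in both arrays and 34.9% right.

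Further genes of the same phases, from 11 lists of known function, were read beside the members. These lists too were chosen with earlier results known, and they come from the same 3 arrays. In the 3 replication lists 22 of 44 tested genes lay below wild type in both arrays (against 26.4% of all genes) and 11 lay above. Their median difference was -0.10, with -0.10 and -0.06 in the uncv null arrays. In the 5 mitotic lists 27 of 63 lay above in both (42.9%, against 38.8%) and 15 below, with a median of 0.06. None of the 136 genes of these lists passed the adjusted limma test (smallest adjusted p = 0.9996), and 1 had an unadjusted p under 0.05.

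Origin licensing and firing genes were below wild type in both arrays in 7 of 13 cases and above in 2. Over all tested genes 26.4% lay below in both arrays and 38.8% above, the background for each list count here. Gins2, a subunit of the GINS complex of the active helicase, had 6.16 in wild type, against 5.63 and 5.90 in uncv null 1 and 2, and Orc6, of the origin recognition complex, stood at -0.37 ± 0.30. Replication fork genes were below in 11 of 23 and above in 6. Here the clamp loader subunits differed, with Rfc3 at -0.41 ± 0.31 and Rfc1 at 0.44 ± 0.28. Of 8 other nucleotide supply genes 4 lay below and 3 above.

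Dut encodes the dUTPase that keeps uracil out of DNA, and it was the gene of these lists with an unadjusted p under 0.05. It had 7.33 in wild type, against 6.45 and 6.57 in uncv null 1 and 2. Its difference was -0.82 ± 0.26 (limma unadjusted p = 0.021, adjusted p = 0.9996), with both uncv null arrays well below wild type and close together. Cad, which starts pyrimidine synthesis, stood at 0.29 ± 0.26.

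Among G1 cyclins and CDKs 6 of 10 lay below in both arrays and 1 above, against 26.4% and 38.8% of all tested genes. Cdk2, the partner of cyclin E, had 6.92, 6.50 and 6.55, a difference of -0.39 ± 0.26, and the D-type cyclin gene Ccnd3 stood at -0.37 ± 0.26. Of 6 tested CDK inhibitors 2 lay above and 2 below. Cdkn1c, the imprinted gene of p57, had 9.55 in wild type, against 8.96 and 7.87 in uncv null 1 and 2, a difference of -1.13 ± 0.47, and Cdkn2b, the gene of p15, had 5.82, 6.70 and 6.25, a difference of 0.65 ± 0.30. These inhibitors lay on opposite sides of wild type, each with a wide gap between the uncv null arrays. Of 19 E2F and pocket protein genes 13 were tested, with a median of -0.03, 3 above and 3 below. The largest differences were 0.24 for both Rbl2 and E2f7, which encode repressors of the cycle. E2f1, E2f4, Lin9, Lin52, Foxm1 and Mybl2, the gene of B-MYB, lay under the minimum mean and were not tested.

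On the mitotic side, each count again stands against 38.8% of all tested genes above in both arrays and 26.4% below. Genes of entry into mitosis lay above in 3 of 5 and below in 0. The hyaluronan receptor and spindle protein gene Hmmr stood at 0.39 ± 0.30 and the CDK1-inhibiting kinase gene Pkmyt1 at 0.22 ± 0.28. Kinesin and cytokinesis genes lay above in 8 of 14 and below in 1, with Cdca8, the passenger protein borealin, at 0.47 ± 0.32 and the cytokinesis scaffold Anln at 0.36 ± 0.26. Kinetochore and checkpoint genes lay above in 7 of 14 and below in 4, with Sgo1, the protector of centromeric cohesion, at 0.39 ± 0.32 and Spc25, of the NDC80 complex, at -0.31 ± 0.26. The anaphase promoting complex and separase list had 5 above and 5 below of 16 and a median of -0.09, the same as the replication fork list, though its medians in the single arrays were 0.04 and -0.03. Its largest differences were the ubiquitin-conjugating enzyme Ube2s at -0.29 ± 0.32 and the subunit Cdc23 at -0.29 ± 0.35. Cohesin and condensin had 4 above and 5 below of 14 and a median of -0.01, and the condensin genes Ncapd2 and Ncapg stood at 0.28 ± 0.26 and 0.22 ± 0.28.

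**Figure D5:**
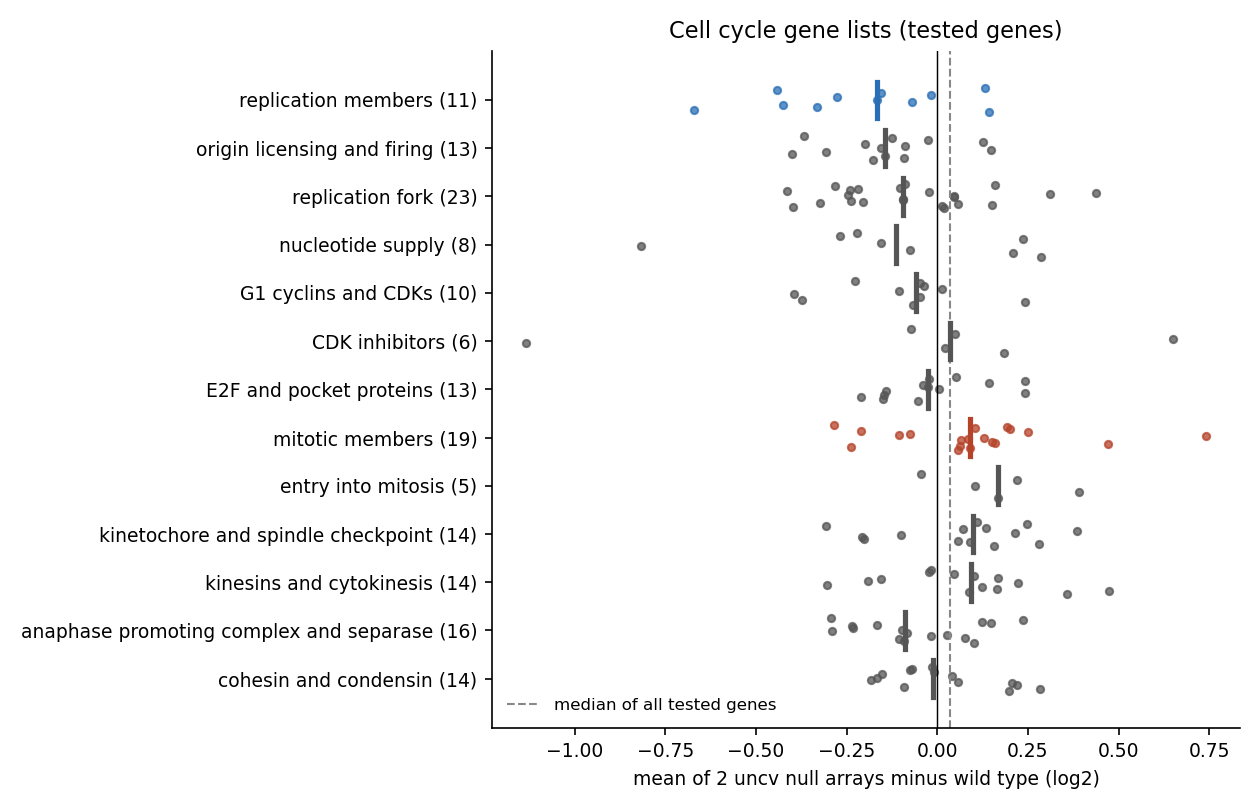
Mean difference of the 2 uncv null arrays from wild type (log2) for each tested gene of the replication members, the mitotic members and 11 further lists, with the number of tested genes in brackets; thick bars are list medians and the dashed line is the median of all tested genes. The replication members and the 3 replication lists have medians from -0.17 to -0.09, and the mitotic members and the entry, kinetochore and kinesin lists have medians from 0.09 to 0.17. The other mitotic lists lie lower, at -0.09 for the anaphase promoting complex and separase and -0.01 for cohesin and condensin.

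Markers of skin cell types were read beside these genes, both of compartments that hold many cycling cells and of others. The background for each marker count, from the 8456 tested genes, is 38.8% for above in both arrays and 26.4% for below in both. Most marker lists are too short for a count to be told from these shares. Of 5 basal keratinocyte markers 4 lay above wild type in both arrays and 0 below, with median differences of 0.19 and 0.40. Their summed linear level was 6582 in wild type, against 6866 and 8479 in uncv null 1 and 2. Such sums rest mostly on the brightest probe sets, here those of Krt5 and Krt14. Of 7 hair matrix and shaft markers 2 lay above and 1 below, with sums of 2138, 1890 and 2471 that rest mostly on the shaft keratins Krt31 and Krt35. Uncv null 2 was the highest array in 5 of the 7, against 44.8% of all tested genes. It was the lowest for Lef1, with 6.27, 6.48 and 6.13, and for Hoxc13, with 6.22, 6.17 and 6.16. No marker passed the adjusted limma test (smallest adjusted p = 0.9996). All 6 fibroblast markers lay below in both arrays, with sums of 21513, 20130 and 15983 and median differences of -0.09 and -0.43, as did all 6 skeletal muscle markers, with sums of 13148, 9436 and 8288. Of the erythroid markers only Alas2 passed the minimum mean, with a difference of -0.92 ± 0.29, and of the lymphoid markers only Ptprc, so cycling blood precursors had few markers to be read by. Ptprc had 4.79, 5.25 and 5.85, with wild type under the minimum mean, so like Cenpe it passed that minimum through the uncv null arrays alone. In both arrays 4 of 5 inner root sheath, 3 of 5 macrophage and 3 of 3 adipocyte markers lay above and 0 below, and of 5 endothelial markers 0 lay above and 2 below. Of 5 suprabasal keratinocyte markers 1 lay above and 1 below, of 5 mast cell markers 1 and 2, of 5 melanocyte markers 0 and 0, and of 2 Schwann cell markers 1 and 1. Slc4a1, Rhag, Hba-a1, Cd3e, Cd79a and Cd2 lay below the minimum mean, and RMA values have no true zero. The part of tissue composition in the replication and mitotic differences was not tested.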

How the data were processed

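Gene expression was measured on 1 array for each of 3 dorsal skin samples, 1 wild type and 2 uncv null, grouped by the sample labels. The authors deposited log2 RMA values per probe set, per the submitters' processing notes, where RMA is named; software and version were not given in the sources used here. Values between 1.96 and 13.1 fit that scale. RMA forces arrays to a common distribution, so a shift of all transcripts could not be seen. The number of arrays limits the precision.

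Of 45101 probe sets, 64 controls were set aside, and the 13559 with a mean of at least 5 were fitted with limma 3.58.1 in R 4.3.3 (lmFit, eBayes, no trend, Benjamini-Hochberg adjustment, threshold 0.05). Each probe set had 1 residual degree of freedom, and limma added 4.75 prior degrees of freedom; wild type is assumed to vary like uncv null. Probe sets were named by the platform annotation, and lists were matched through symbols, synonyms and gene identifiers. Promoters came from RefSeq tables. On simulated data, with spread drawn from limma's prior, the fit called 23.8% of changes of 1 log2 unit and 96% of changes of 2. Changes as small as those of the members were not simulated. On the real arrays the fit called 0 of 8456 genes, so the simulated shares need not hold for them.

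The 32 members, the 11 lists and the cell type markers were chosen with earlier results of these data known, so no test over a list was made. All members may be named, with each array's value for the 5 mitotic and 5 replication members with the largest differences and for members whose probe sets disagree, and in each list the 2 genes with the largest differences. The labels and the series description name different extraction reagents. P-values rest on the gap between the uncv null arrays and, with more weight, on a spread pooled by limma over all tested probe sets. The spread of wild type was not measured. Alternatives were other filters, probe set rules, scaling, an intensity trend and leaving out each uncv null array.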

Additional observations from a re-analysis of the deposited data

Results flagged for a closer look

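The 18S ribosomal RNA control probe sets, which no comparison above uses, averaged 7.93 in uncv null 1, above the 3.59 of the wild type array, and 4.26 in uncv null 2. The Actb 3′ minus 5′ difference was also largest in uncv null 1, at 1.23. What these signals contribute to the lower uncv null 1 readings of the tested Rrm1 probe sets and of the dimmer Rrm2 probe sets was not tested. The brightest Rrm2 probe set was not low in uncv null 1.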

How the results depend on the processing

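No paired analysis was possible because there is only 1 wild type array. No member passed the adjusted limma test under no filter, a minimum mean of 7, the mean of probe sets, the brightest probe set without those ending in s_at or x_at, median-centred arrays or an intensity trend. Leaving out an uncv null array leaves no residual degree of freedom, so those values have no test, and wild type has no second array to leave out. The replication median stayed below 0 and below the mitotic median in every alternative run. Without s_at and x_at probe sets it was -0.26, and the difference of medians was -0.36. At a minimum mean of 7, where 16 members remain, 12 lay on one side of wild type in both arrays, 5 replication genes below and 4 mitotic genes above. With 1 uncv null array left out, the difference of medians ranged from -0.28 to -0.20, the mitotic median from -0.02 to 0.19, and the mitotic genes above wild type from 8 to 14. With the mean of probe sets Kif11 turned to 0.13 and Rrm2 to -0.13, and Rrm2 was at -0.13 without s_at and x_at probe sets. Single-array differences changed sign for Bub1 (-0.046 to 0.17), Kif20a (-0.28 to 0.13), Aurka (-0.26 to 0.37), Cdc20 (-0.033 to 0.16), Cdk1 (-0.022 to 0.19), Cenpa (-0.0054 to 0.26), Mcm7 (-0.060 to 0.027), Plk1 (-0.059 to 0.46) and Prc1 (-0.067 to 0.27). The cause was not tested. Signal over background was not used here, which limits what can be said of Cenpe, Ccne2 and Tyms.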
